A study of Mus musculus with 24 samples.

Results

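The retina and the pineal gland of control mice were compared at night, across all genes of the array. The 3 pools titled as control retina at ZT20 were set against the 3 titled as control pineal gland at ZT20, which are 6 of the series' 24 arrays. The series used Affymetrix Mouse 430 2.0 arrays to ask what loss of the transcription factor NeuroD1 changes in these tissues by day and by night. All mice were C57BL/6J, of both sexes and 2 months old, and were housed with 12 h of light and 12 h of darkness each day. Control mice in both groups were homozygous for floxed NeuroD1 alleles and lacked the Crx-Cre transgene, so that they are not wild type at that locus. ZT20 is 20 h after lights on, and tissue was taken then under dim red light. Each pool held 6 retinas or 6 glands. With pooled tissue, p-values rest on how far pools differ and not on how far single mice do. Control pools of both tissues at ZT6, taken by day, were used to ask whether a difference depended on the time.

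Photoreceptors and pinealocytes arise from related neuroepithelium and share the homeobox factors Otx2 and Crx and much of the phototransduction machinery. In the retina, rods and cones turn light into a fall in cyclic GMP, and inner neurons carry the signal to ganglion cells. The mammalian pineal gland is not directly light sensitive: sympathetic nerves release norepinephrine at night, cyclic AMP rises in pinealocytes, and serotonin is converted to melatonin. The gland also holds vessels, macrophages, glia and a covering of meninges.

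Of 18193 genes with a probe set of 1 symbol, 12928 lay above the array median on at least 3 of 24 arrays and were tested. At night 920 of them lay above the median on at least 1 retina array and on no pineal array, and 1222 on at least 1 pineal array and on no retina array. Named members of 38 lists of cell types, pathways and complexes numbered 731, of which 654 had a probe set and 601 were tested. Each difference is the mean log2(signal + 16) of 3 retina pools minus that of 3 pineal pools, ± its SE in limma. A gene is said to have passed, or to be higher or lower, where its adjusted p was under 0.05. Array medians at night were 107.8 to 137.7 units in the retina and 132.3 to 156.4 in the pineal gland, and the median difference over all genes tested was -0.24, so small differences are best read against that value. Pools of 1 tissue correlated at 0.988 to 0.991, and pools of different tissues at 0.881 to 0.895. Log2 ratios of 3' to 5' Actb control probe sets were 1.48 to 1.79 in the retina and 1.07 to 1.30 in the pineal gland, without overlap, and those of Gapdh were 0.26 to 0.49 in the retina and 0.36 to 0.37 in the pineal gland. The part of RNA quality in the results was not tested. In bulk tissue, fewer cells of a type and less RNA per cell cannot be told apart.

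The tissue labels were checked against defining markers. The pinealocyte markers Tph1, Aanat and Ddc summed to 170.1 to 355.6 units in retina pools and 24819 to 28872 in pineal pools. The rod markers Nrl and Gnat1 summed to 22163 to 25831 units in retina pools, against 1141.1, 893.5 and 215.1 in pineal pools 1, 2 and 3. Among the night pools, retina pool 1 stood apart in genes of neighbouring eye tissue. Its lens markers, Cryaa, Crybb2, Crygs and Mip, summed to 33437 units, against 13119 and 12498 in retina pools 2 and 3 and 187.2 to 791.1 in the pineal pools. By day the same lens markers summed to 33579, 19485 and 34794 units in control retina pools 1, 2 and 3. Night pool 1 was thus within the range of the day pools, and night pools 2 and 3 were below it. The melanosome enzyme Tyrp1 read 1419, 235 and 397 units in night retina pools 1, 2 and 3. For the lens and pigment lists and for several genes that were highest in night retina pool 1, values without that pool are given too.

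Of the 12928 genes, 8209 (63.5%) passed, 2684 (20.8%) as higher and 5525 (42.7%) as lower in the retina. At least 4-fold differences were found for 825 genes (6.38%) that were higher and 1282 (9.92%) that were lower. The share of passing genes that were higher in the retina was 32.7% as deposited, 45.2% after median centring and 46.7% after quantile normalisation. Pools of the 2 tissues did not overlap for 8694 genes (67.2%). Counts of members that passed are to be read against these shares. The scatter plot of both tissues shows rod and amacrine genes far above the diagonal and melatonin and meningeal genes far below it, with Sag and Crx beside it among the brightest genes.

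**Figure D1:**
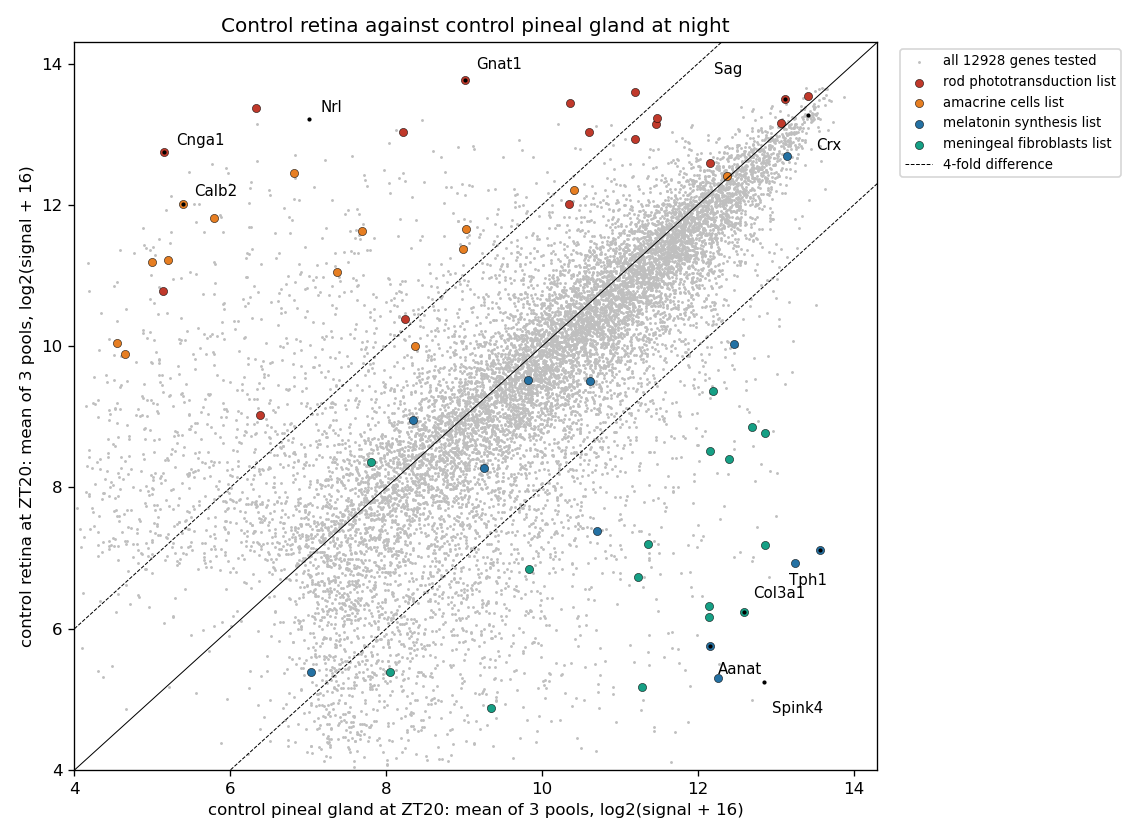
Mean log2(signal + 16) of 3 control retina pools (vertical axis) against 3 control pineal gland pools (horizontal axis) at ZT20 for 12928 genes. Coloured points are members of 4 gene lists, the solid line marks equal signal and dashed lines 4-fold differences. Cnga1 lies 7.59 above the line and Spink4 lies at -7.60, while Crx lies at -0.14.

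The 20 largest differences toward the retina, by a rule that leaves out predicted genes and probe sets whose probes can match several genes (type x), held rod genes, genes known from neurons and a pair of neighbouring ventral retina transcripts. The largest was Cnga1, the rod subunit of the cyclic GMP-gated channel, with 7352, 6041 and 7247 units in retina pools and 32.7, 35.7 and 1.9 in pineal pools, a difference of 7.59 ± 0.64, adjusted p = 1.8e-11. Vax2, a homeobox factor of the ventral retina, had 2514, 1519 and 1392 units in retina pools and 1, 3 and 2.8 in pineal pools (6.59 ± 0.28, adjusted p = 9.6e-18). The antisense transcript of its locus, Vax2os, stood at 7.01, and whether the amplified RNA kept the strands apart was not tested. Other photoreceptor genes among the 20 were the calcium sensor Rcvrn (7.04), the axonemal protein Rp1 (6.79) and the thioredoxin-like Nxnl2 (6.48). Listed markers of inner neurons among the 20 were the LIM factor Isl1 (6.57), calretinin Calb2 (6.63) and the neurofilament Nefl (6.48). Other genes known from neurons were the active zone scaffold Rims1 (6.87), substance P precursor Tac1 (6.53), the helix-loop-helix factor Nhlh2 (6.46) and rabphilin Rph3a (6.43). The others were Rit2, Cbln2, Fstl5, Lamp5, Tmem130, Pcdh15 and the retinoid isomerase Rpe65, between 6.82 and 6.38. Over all 20, the lowest retina pool read 1391.8 units and the highest pineal pool 137.5.

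The 20 largest differences toward the pineal gland by the same rule mixed melatonin enzymes with secreted proteins, developmental factors and genes of other cells. Spink4, a secreted protease inhibitor, had 22.7, 13.7 and 32.3 units in retina pools and 6778, 7040 and 8365 in pineal pools (-7.60 ± 0.27, adjusted p = 1.7e-19). Myog, known as a myogenic helix-loop-helix factor of muscle, had 1.4, 0.7 and 1.8 units in retina pools and 3359, 2653 and 3662 in pineal pools (-7.54 ± 0.21, adjusted p = 2.6e-21). Cnpy1, a regulator of fibroblast growth factor signalling in fish, was at -7.21 ± 0.27, adjusted p = 1.0e-18, and the Notch family ligand Dlk1 at -7.19 ± 0.22, adjusted p = 7.0e-21. Tac4, the precursor of hemokinin, had 25.8, 31.5 and 29.5 units in retina pools and 5198, 5559 and 6804 in pineal pools (-7.02 ± 0.20, adjusted p = 2.6e-21). Next were endocan Esm1 (-7.18), an endothelial proteoglycan, the immunoglobulin heavy chain Igha (-6.88), the mesenchymal forkhead factor Foxc2 (-6.72), the tight junction claudin Cldn11 (-6.42), collagen Col3a1 (-6.36) and the neural crest factor Pax3 (-6.19). Shisa3, Sh2d6, Padi1 and Fgl2 lay between -6.42 and -6.28. The other 5 were the melatonin genes Gch1, Tph1, Aanat and Ddc and the nicotinic subunit Chrnb4, described below. The rule passed over 3 named genes of as large a difference, Igkv8-30 (-6.83), Ccn3 (-6.77) and the class II chain H2-Aa (-6.24), each read by a probe set of type x. Over the 20, the highest retina pool read 181.7 units and the lowest pineal pool 1354.8.

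Rod phototransduction genes differed between the tissues by unlike amounts, also among subunits of the same step. Of 18 members tested 16 passed as higher in the retina and 0 as lower, and 10 were at least 4-fold higher, with a median of 2.28 against -0.24 for all genes. Gnat1, the rod transducin alpha subunit, had 14888, 13734 and 13414 units in retina pools and 958, 732 and 172 in pineal pools (4.77 ± 0.89, adjusted p = 3.2e-05). Pineal pool 3 was the lowest in it, as it was for Nrl, Rcvrn and the summed lens markers. By day the summed rod markers in the gland were 192.3, 1639.5 and 4910.7 units. The part of retinal RNA in the pineal pools was not tested. Without any 1 night pool the Gnat1 difference was 4.04 to 5.23. At the far end was the catalytic subunit Pde6a, with 1636, 1614 and 2013 units in retina pools and 21.9, 16.9 and 19.1 in pineal pools (5.64 ± 0.22, adjusted p = 1.7e-18). Its partner Pde6b differed less, with 9303, 8820 and 9052 units in retina pools and 2535, 2815 and 3080 in pineal pools (1.69 ± 0.10, adjusted p = 1.5e-14), and the inhibitory subunit Pde6g had 9472, 8922 and 9094 units in retina pools and 8406, 8373 and 8883 in pineal pools, with pools that did not overlap but a difference of 0.10 ± 0.07, adjusted p = 0.21. The signals of this enzyme's subunits thus differed between the tissues by unlike amounts. The highest signal on any array of the series was 20540 units. Whether signals of the brightest probe sets, here and below, understate differences in RNA was not tested.

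The regulators of the rod cascade differed by unlike amounts too. The guanylyl cyclase activator Guca1b was at 4.82 ± 0.34, adjusted p = 2.5e-13 and its homologue Guca1a, read at 2440 to 3226 units in the gland, at 1.75 ± 0.11, adjusted p = 1.5e-14. Phosducin Pdc, which binds the transducin beta-gamma pair, was at 3.08 ± 0.33, adjusted p = 2.2e-09, and rhodopsin kinase Grk1 at 2.64 ± 0.22, adjusted p = 1.7e-11. The GTPase-activating complex gave 2.15 for Rgs9, 2.43 for its anchor Rgs9bp and 0.45 for its beta subunit Gnb5. The channel subunit Cngb1 was at 1.66, against 7.59 for Cnga1. Arrestin Sag, which quenches the activated opsin, had 12405, 11441 and 11002 units in retina pools and 8228, 9170 and 9160 in pineal pools (0.39 ± 0.06, adjusted p = 2.5e-06).

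The cone cascade split in both directions: 5 of 11 members were higher in the retina, all by at least 4-fold, 4 were lower, and the median was -0.06. Opn1mw, the middle-wavelength opsin, had 3141, 2495 and 3864 units in retina pools and 41.1, 43.7 and 47.2 in pineal pools (5.71 ± 0.35, adjusted p = 1.4e-14). The inhibitory subunit Pde6h was at 5.78 ± 0.44, adjusted p = 2.1e-12, cone arrestin Arr3 at 4.21 ± 0.30, adjusted p = 5.8e-13, the potassium channel subunit Kcnv2 at 3.89 ± 0.32, adjusted p = 9.6e-12 and the short-wavelength opsin Opn1sw at 3.79 ± 0.27, adjusted p = 3.6e-13. Cone transducin Gnat2 had 5467, 4352 and 4757 units in retina pools and 4343, 5463 and 5359 in pineal pools, which overlap (-0.06 ± 0.11, adjusted p = 0.66). The cone catalytic subunit Pde6c was lower in the retina, with 3732, 2981 and 2880 units in retina pools and 5422, 6112 and 6284 in pineal pools (-0.90 ± 0.14, adjusted p = 1.3e-06), as were the beta subunit Gnb3 (-0.77 ± 0.09, adjusted p = 8.2e-09), the exchanger Slc24a2 (-0.57 ± 0.16, adjusted p = 0.0029) and the channel subunit Cngb3, with 568, 505 and 652 units in retina pools and 3023, 3451 and 3207 in pineal pools (-2.46 ± 0.16, adjusted p = 9.2e-14). In the pool plot of both cascades these genes stand at the right-hand end. Within families the rod copy had the more positive difference for transducin alpha (Gnat1 4.77, Gnat2 -0.06), beta (Gnb1 0.13, Gnb3 -0.77) and gamma (Gngt1 2.41, Gngt2 -0.48), the catalytic subunits (Pde6a 5.64 and Pde6b 1.69, Pde6c -0.90) and the channel beta subunits (Cngb1 1.66, Cngb3 -2.46). The cone copy had it for arrestin (Arr3 4.21, Sag 0.39) and the inhibitory subunit (Pde6h 5.78, Pde6g 0.10). The differences between family members were not themselves tested.

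**Figure D2:**
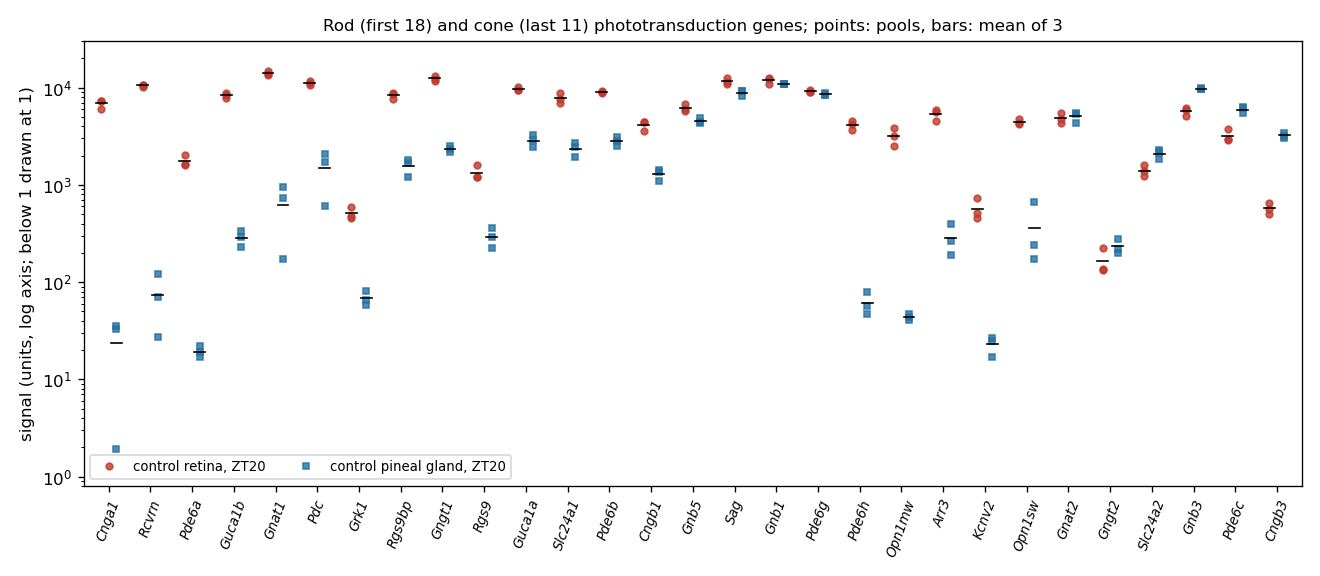
Signal (units, log axis) of each night pool for 18 rod and 11 cone phototransduction genes, with control retina (circles) left of control pineal gland (squares) and bars at the mean of 3 pools. Pde6g, Gnb1 and Gnat2 sit at like heights in both tissues, Cnga1 and Pde6a stand far apart, and Cngb3 and Pde6c are higher in the gland.

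Promoters are shown for 3 photoreceptor genes that differ in how far the tissues part, Cnga1 at 7.59, Sag at 0.39 and Crx at -0.14. The sequences are RefSeq's, build GRCm38.p6, from 250 bases before to 50 after the gene's start, with TAATCC or its reverse complement GGATTA, the core read by Crx and Otx2, in capitals.
Cnga1 chr5:72642703-72643002, minus strand: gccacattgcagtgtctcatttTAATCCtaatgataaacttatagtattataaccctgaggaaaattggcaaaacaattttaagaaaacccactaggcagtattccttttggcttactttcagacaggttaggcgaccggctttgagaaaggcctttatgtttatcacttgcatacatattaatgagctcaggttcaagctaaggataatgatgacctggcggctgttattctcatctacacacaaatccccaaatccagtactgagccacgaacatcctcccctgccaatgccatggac
Sag chr1:87803430-87803729, plus strand: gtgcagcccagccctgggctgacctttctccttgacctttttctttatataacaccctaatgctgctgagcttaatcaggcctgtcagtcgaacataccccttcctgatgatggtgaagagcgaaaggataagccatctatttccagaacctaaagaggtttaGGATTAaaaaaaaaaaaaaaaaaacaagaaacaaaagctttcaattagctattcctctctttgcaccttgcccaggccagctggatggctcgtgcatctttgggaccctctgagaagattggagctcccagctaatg
Crx chr7:15879906-15880205, minus strand: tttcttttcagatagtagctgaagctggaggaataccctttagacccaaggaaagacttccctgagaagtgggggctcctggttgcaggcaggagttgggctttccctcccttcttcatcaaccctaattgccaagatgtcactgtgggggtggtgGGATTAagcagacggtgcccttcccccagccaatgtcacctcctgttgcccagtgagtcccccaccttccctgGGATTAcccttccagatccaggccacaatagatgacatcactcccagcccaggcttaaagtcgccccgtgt
The match begins 228 bases before the start of Cnga1, 87 before that of Sag, and 94 and 21 before that of Crx. Over 5 photoreceptor lists, 56 members had a promoter in the table and 20 (35.7%) held either form, against 8.14% of all 27025 promoters and 7.28% of the 10421 of tested genes. The share was 8.67% of 623 genes at least 4-fold higher in the retina and 8.88% of 957 at least 4-fold lower. A match describes the letters and is not a bound site.

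Outer segment genes were mostly higher in the retina, 15 of 17 with a median of 1.20, and 0 were lower. The differences ran from 6.79 for Rp1 to -0.03 for the photoreceptor cadherin Cdhr1, which had 9814, 9100 and 9454 units in retina pools and 9218, 9759 and 9976 in pineal pools. The actin bundler Fscn2 had 1500, 1316 and 1371 units in retina pools and 11.9, 27.4 and 15.1 in pineal pools (5.39 ± 0.26, adjusted p = 1.1e-16), and peripherin Prph2, the rim protein of the disc, 7551, 6011 and 7263 units in retina pools and 351, 421 and 352 in pineal pools (4.15 ± 0.15, adjusted p = 4.6e-19). Rom1, the partner of Prph2 in the rim, had 10711, 9849 and 9706 units in retina pools and 7069, 7560 and 8729 in pineal pools (0.38 ± 0.08, adjusted p = 0.00021). The matrix proteoglycan Impg1 was at 4.03, the ciliary kinase Mak at 3.68, the retinal lipid flippase Abca4 at 1.19 and Tulp1, a ciliary transport protein, at 0.23 ± 0.15, adjusted p = 0.19.

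The photoreceptor transcription factors ranged from Esrrb, far higher in the retina, to Rxrg, lower in it. Of the 13 members 8 were higher and 2 lower, with a median of 1.19. Crx had 10462, 9584 and 9615 units in retina pools and 10879, 10252 and 11559 in pineal pools, with overlapping pools (-0.14 ± 0.07, adjusted p = 0.084). Otx2 had 5090, 4709 and 5395 units in retina pools and 5330, 6342 and 5896 in pineal pools (-0.21 ± 0.09, adjusted p = 0.047), a difference smaller than the shift of all genes. Median centring put it at -0.02, adjusted p = 0.84. Neurod1, the gene that is floxed in these mice, had 7617, 6698 and 7396 units in retina pools and 3156, 4323 and 3387 in pineal pools, and the pools did not overlap. In the fit of all groups, whose spread includes the knockout arrays, its difference was 1.01 ± 0.80, adjusted p = 0.28, and among the 12 control arrays alone it was 1.01 ± 0.10, adjusted p = 1.0e-08. The widest gaps were those of the rod determinant Nrl, with 10944, 8429 and 9374 units in retina pools and 184, 162 and 43.6 in pineal pools (6.22 ± 0.49, adjusted p = 3.7e-12), the orphan receptor Esrrb (6.27 ± 0.37, adjusted p = 4.9e-15) and the repressor Samd7 (6.19 ± 0.49, adjusted p = 5.1e-12). The retinoid receptor Rxrg, which acts in cones, was lower in the retina, with 185, 117 and 167 units in retina pools and 1044, 1704 and 1530 in pineal pools (-3.06 ± 0.23, adjusted p = 1.6e-12).

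Other developmental factors marked each tissue. The eye field factors Six6 (5.63 ± 0.24, adjusted p = 1.1e-17) and Six3 (4.02 ± 0.28, adjusted p = 2.9e-13), and Meis2 (5.42 ± 0.26, adjusted p = 5.7e-17) and Meis1 (4.33 ± 0.27, adjusted p = 1.8e-14), were higher in the retina. Pax6, a regulator of eye and pineal development, had 4952, 4442 and 4761 units in retina pools and 1234, 1503 and 1313 in pineal pools (1.80 ± 0.12, adjusted p = 2.3e-13), and Rax was at 1.19. Lower in the retina were the LIM factors Lhx3 (-2.87 ± 0.23, adjusted p = 6.4e-12), Lhx4 (-1.56 ± 0.12, adjusted p = 4.4e-12), Lhx9 (-1.44 ± 0.18, adjusted p = 3.5e-08) and Isl2 (-3.24 ± 0.28, adjusted p = 2.2e-11). Isl1 and Isl2, close homologues, thus stood at 6.57 and -3.24. Of 21 members of this list 9 were higher and 8 lower, with a median of 0.02. Neurod4 (-0.28 ± 0.07, adjusted p = 0.00088) and Neurod2 (-0.95 ± 0.23, adjusted p = 0.0008), relatives of Neurod1, were lower in the retina, and Neurod4 did not pass after median centring (-0.09, adjusted p = 0.48).

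The ribbon synapse, by which photoreceptors release glutamate and whose proteins pinealocytes share in part, gave 13 of 16 members higher and 2 lower, with a median of 0.57. The calcium-binding protein Cabp4 had 5648, 4496 and 5243 units in retina pools and 76.4, 51.7 and 56.9 in pineal pools (6.06 ± 0.26, adjusted p = 1.1e-17). The vesicular glutamate transporter Slc17a7 was higher, with 6584, 6791 and 7691 units in retina pools and 683, 928 and 930.3 in pineal pools (3.04 ± 0.15, adjusted p = 9.6e-17), while its relative Slc17a6 was lower, with 2724, 2240 and 2995 units in retina pools and 8648, 8140 and 8943 in pineal pools (-1.70 ± 0.12, adjusted p = 3.8e-13). The synaptic cell adhesion protein Elfn1 was at 3.59, the scaffold Pclo at 1.82, the calcium channel Cacna1f at 1.59 and ribeye's gene Ctbp2 at 0.59. The ribbon complexins Cplx4 (0.17 ± 0.08, adjusted p = 0.064) and Cplx3 (-0.77 ± 0.10, adjusted p = 4.2e-08) did not follow the conventional complexins Cplx1 (1.51 ± 0.18, adjusted p = 1.5e-08) and Cplx2 (1.64 ± 0.20, adjusted p = 4.2e-08). The vesicle proteins Snap25 and Syp did not pass. Snap25 had 13692, 13250 and 11850 units in retina pools and 12368, 12047 and 12706 in pineal pools (0.06 ± 0.06, adjusted p = 0.35), and synaptophysin Syp was at -0.11 ± 0.09, adjusted p = 0.3. Of 26 vesicle release genes 11 were higher, 4 of them by at least 4-fold with Rims1 at the top, and 4 were lower.

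Markers of inner retinal neurons were mostly higher in the retina, and those of amacrine cells had the widest gaps among them. Of 14 amacrine genes 13 were higher, 11 of them by at least 4-fold, with a median of 4.59. The GABA-synthesising enzyme Gad2 had 1884, 2239 and 2985 units in retina pools and 23, 19.2 and 7.8 in pineal pools (6.20 ± 0.38, adjusted p = 1.4e-14) and the inhibitory vesicle transporter Slc32a1 1092, 915 and 1119 units in retina pools and 7.3, 6.1 and 8.7 in pineal pools (5.50 ± 0.28, adjusted p = 2.9e-16). The exception was the glycine transporter Slc6a9, with 5321, 5462 and 5536 units in retina pools and 5082, 5286 and 5536 in pineal pools (0.04 ± 0.09, adjusted p = 0.72). Of 18 bipolar genes 13 were higher and 3 lower, with a median of 2.12, led by Isl1, Grik1 (5.75) and the neurokinin receptor Tacr3 (5.69). Lower were the carbonic anhydrase-related Car8 (-1.67 ± 0.13, adjusted p = 5.2e-12), Lhx4 (-1.56) and Cabp5 (-0.50 ± 0.20, adjusted p = 0.028). The bipolar channel Trpm1, which pigment cells also make, had 1210, 194 and 226 units in retina pools and 56.9, 71.1 and 38.8 in pineal pools (2.49 ± 0.57, adjusted p = 0.00037), and 1.68, adjusted p = 0.008 without retina pool 1.

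Of 7 horizontal cell genes 6 were higher, Calb1 at 5.18 ± 0.26, adjusted p = 1.5e-16 and Prox1 at 4.12 ± 0.28, adjusted p = 1.5e-13, with a median of 2.44. Of 18 ganglion cell genes 13 were higher and 4 lower, with a median of 2.40. Nefl had 5552, 5148 and 6113 units in retina pools and 78.6, 56.9 and 19.7 in pineal pools (6.48 ± 0.56, adjusted p = 2.6e-11), the nicotinic subunit Chrna6 was at 6.03, and the POU factor Pou4f1 at 4.67. Melanopsin, Opn4, had 164, 130.0 and 129 units in retina pools and 13.5, 23.4 and 25.4 in pineal pools (2.10 ± 0.25, adjusted p = 2.2e-08). Lower in the retina were Isl2, Slc17a6, the RNA-binding Rbpms (-0.98 ± 0.20, adjusted p = 7.2e-05) and Tubb3 (-0.64 ± 0.15, adjusted p = 0.00041).

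Receptors for glutamate, GABA and glycine were mostly higher in the retina. Of 23 such genes, ion channels and G protein-coupled receptors among them, 20 were higher, 19 by at least 4-fold, and the median was 3.69. The AMPA subunit Gria2 had 3324, 2922 and 3129 units in retina pools and 22.4, 25.7 and 17.7 in pineal pools (6.38 ± 0.31, adjusted p = 1.2e-16), the GABA subunit Gabra2 1611, 1647 and 2340 units in retina pools and 1.8, 9.8 and 9.7 in pineal pools (6.35 ± 0.35, adjusted p = 1.9e-15) and the glycine receptor Glra2 1281, 1375 and 1578 units in retina pools and 12.5, 1.2 and 0.9 in pineal pools (6.13 ± 0.25, adjusted p = 6.2e-18). Gria1 was the member lower in the retina, with 829.5, 656 and 928 units in retina pools and 1494, 1649 and 1585 in pineal pools (-0.97 ± 0.19, adjusted p = 5.9e-05). Potassium channels gave 19 of 27 higher and 4 lower (median 1.87), from Kcnj3 (5.71) to Kcnj13 (-2.69), and calcium, sodium and HCN channels 14 of 22 higher and 5 lower (median 1.38), from Scn1a (5.94) to Hcn3, with 288, 188 and 244 units in retina pools and 1239, 1718 and 1888 in pineal pools (-2.67 ± 0.27, adjusted p = 5.6e-10).

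Mueller glia genes gave 13 of 21 higher and 6 lower, with a median of 0.80. The orphan receptor Gpr37 had 3480, 3588 and 4048 units in retina pools and 49.4, 56.7 and 26.1 in pineal pools (5.99 ± 0.30, adjusted p = 1.4e-16), the glutamate transporter Slc1a3 was at 3.32 ± 0.19, adjusted p = 2.4e-15 and the retinaldehyde-binding Rlbp1 at 3.18 ± 0.17, adjusted p = 7.9e-16. Glutamine synthetase, Glul, was nearly level, with 9966, 9684 and 8958 units in retina pools and 8872, 8692 and 8357 in pineal pools (0.14 ± 0.06, adjusted p = 0.04), and its call was lost without retina pool 1 (0.11, adjusted p = 0.17). Apoe (-0.95 ± 0.13, adjusted p = 4.2e-07) and Hes1 (-0.85 ± 0.21, adjusted p = 0.00076) were lower in the retina. Of 10 genes listed for astrocytes 5 were higher and 5 lower. The gap junction gene Gjb6 had 17.9, 4.4 and 20.7 units in retina pools and 1580, 1856 and 1610 in pineal pools (-5.85 ± 0.28, adjusted p = 6.4e-17) and the intermediate filament Gfap 398, 175 and 240.0 units in retina pools and 675, 719 and 994 in pineal pools (-1.55 ± 0.25, adjusted p = 3.5e-06).

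Retinoid genes ran in both directions. Rpe65, the isomerase of the pigment epithelium, had 2590, 2492 and 2751 units in retina pools and 36, 9.8 and 7.2 in pineal pools (6.38 ± 0.30, adjusted p = 6.2e-17), the photoreceptor dehydrogenase Rdh12 was at 4.83 ± 0.23, adjusted p = 5.0e-17 and the opsin Rgr at 3.12 ± 0.25, adjusted p = 8.0e-12. The interphotoreceptor retinoid-binding protein Rbp3 had 13550, 12296 and 11899 units in retina pools and 11417, 11673 and 11524 in pineal pools (0.12 ± 0.06, adjusted p = 0.084), which places it among the brightest genes of both tissues. Lower in the retina were the cellular binding protein Crabp1, with 816, 639 and 914 units in retina pools and 8693, 9226 and 10430 in pineal pools (-3.56 ± 0.18, adjusted p = 2.3e-16), retinol-binding protein Rbp4 (-4.07 ± 0.22, adjusted p = 8.2e-16), the dehydrogenase Rdh5 (-2.26 ± 0.27, adjusted p = 1.9e-08) and Crabp2 (-1.66 ± 0.23, adjusted p = 3.1e-07). Of 16 members 10 were higher and 5 lower. Among nonvisual opsins, Rrh was at 4.71 ± 0.20, adjusted p = 1.0e-17 and Opn3 at -1.07 ± 0.24, adjusted p = 0.0003.

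The pigment and lens lists rested partly on retina pool 1. Of 15 lens genes 14 were higher in the retina with a median of 4.52, and without pool 1 12 were higher and 1 lower with a median of 3.86. Cryaa had 9167, 3535 and 3287 units in retina pools and 154, 85 and 27.2 in pineal pools (5.72 ± 0.59, adjusted p = 1.1e-09), so the retina pools other than pool 1 were also above the gland. Mip, the lens aquaporin, had 3092, 227 and 246 units in retina pools and 13.8, 22.1 and 16.6 in pineal pools (4.13 ± 1.00, adjusted p = 0.00072), and 2.92, adjusted p = 0.012 without pool 1. The calls of Lim2 and Bfsp1 were lost without it (1.35, adjusted p = 0.24, and 1.15, adjusted p = 0.28). Of 16 pigment epithelium and melanosome genes 7 were higher and 4 lower, against 6 and 4 without pool 1, and the median was 0.44, against -0.13 without that pool. Tyrp1 stood at 1.87 ± 0.55, adjusted p = 0.0039, and without pool 1 at 1.15, adjusted p = 0.062. Mitf, the factor that controls melanosome genes, was lower in the retina, with 1584, 1227 and 1796 units in retina pools and 11778, 11384 and 11891 in pineal pools (-2.93 ± 0.13, adjusted p = 2.9e-17).

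**Figure D3:**
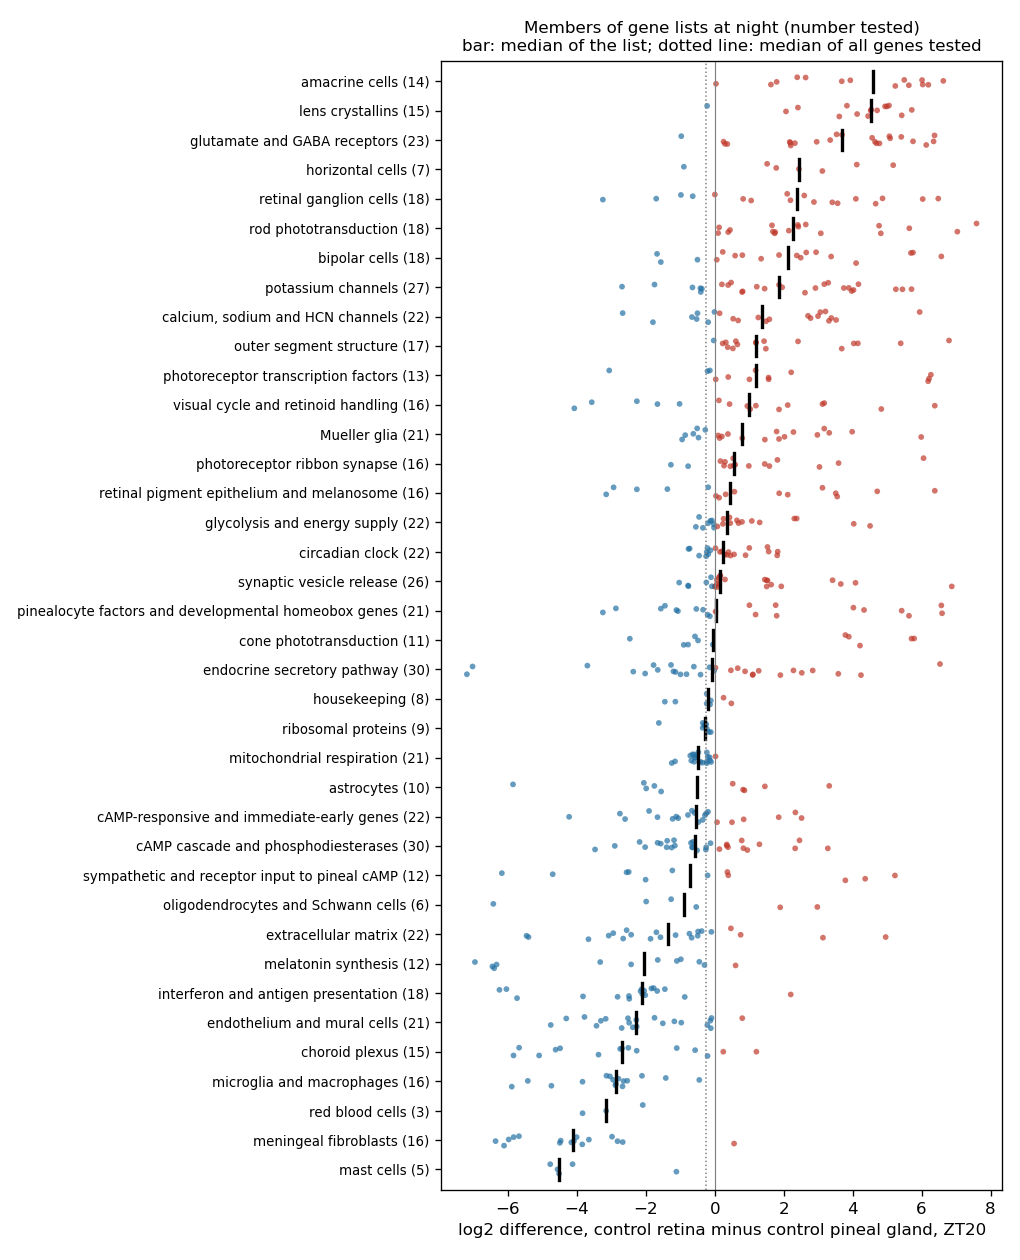
Log2 difference, control retina minus control pineal gland at ZT20, for every tested member of 38 gene lists (points, red above 0 and blue below), with the list's median as a bar and the median of all 12928 genes as a dotted line at -0.24. Lists of inner neurons, lens and receptors lie to the right, those of meninges, mast cells and macrophages to the left, and the cone list straddles 0.

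Genes listed for melatonin synthesis, the gland's endocrine task, mostly had less RNA signal in the retina. Neither enzyme activity nor melatonin was measured, so the signals do not show how much melatonin these mice made. Asmt, also planned as a pinealocyte marker, matched no probe set and has no value here. Of 12 members 10 were lower in the retina, 6 by at least 4-fold, 1 was higher, and the median was -2.04. Tryptophan hydroxylase Tph1 had 168, 57.9 and 182 units in retina pools and 12104, 11722 and 12566 in pineal pools (-6.45 ± 0.30, adjusted p = 4.0e-17), the aromatic amino acid decarboxylase Ddc 143, 87 and 93.9 units in retina pools and 9042, 9548 and 10704 in pineal pools (-6.33 ± 0.20, adjusted p = 1.0e-20), and the N-acetyltransferase Aanat, which sets the nightly rate, 44.1, 25.2 and 48.1 units in retina pools and 4715, 3549 and 5602 in pineal pools (-6.40 ± 0.24, adjusted p = 1.0e-18). Gch1, the first enzyme of the hydroxylase cofactor tetrahydrobiopterin, had 29.1, 12.6 and 31.6 units in retina pools and 4261, 5190 and 5226 in pineal pools (-6.95 ± 0.21, adjusted p = 1.0e-20). The later cofactor genes followed less closely, with Spr at -1.10 ± 0.19, adjusted p = 1.2e-05, Pcbd1 at -2.42 ± 0.20, adjusted p = 1.2e-11 and Qdpr at -0.45 ± 0.07, adjusted p = 9.6e-07. The neuronal hydroxylase Tph2 went the other way, with 302, 267 and 268 units in retina pools and 24.9, 12.4 and 14.2 in pineal pools (3.17 ± 0.24, adjusted p = 2.0e-12). Of the monoamine oxidases Maob was at -3.32 ± 0.20, adjusted p = 6.0e-15 and Maoa at -0.98 ± 0.18, adjusted p = 2.1e-05. The vesicular transporters were opposite in sign, Slc18a2 at 0.61 ± 0.17, adjusted p = 0.0031 and Slc18a1 at -1.65 ± 0.22, adjusted p = 1.7e-07.

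Of 23 genes listed as receptor input to pineal cyclic AMP 12 were tested, 4 of them higher and 6 lower in the retina. The list held adrenergic, nicotinic, dopamine, peptide and GABA receptors, not all of which raise cyclic AMP. No beta-adrenergic receptor was among the 12 tested. The nicotinic subunits Chrnb4, with 106, 61.4 and 111 units in retina pools and 7051, 8114 and 7865 in pineal pools (-6.17 ± 0.21, adjusted p = 9.4e-20), and Chrna3, with 302, 274 and 276 units in retina pools and 7816, 7456 and 8027 in pineal pools (-4.70 ± 0.13, adjusted p = 2.6e-21), were the most pineal of these. The adrenergic receptors Adra1b, with 30.1, 22.2 and 23 units in retina pools and 247, 185 and 215 in pineal pools (-2.49 ± 0.25, adjusted p = 8.2e-10), and Adra2c (-2.56 ± 0.24, adjusted p = 1.2e-10) were also lower in the retina. So was the PACAP receptor Adcyap1r1, with 153, 78.8 and 155 units in retina pools and 435, 600.3 and 620.1 in pineal pools. The dopamine receptors stood opposite, with Drd2 at 5.23 ± 0.26, adjusted p = 1.5e-16, Drd1 at 3.79 ± 0.22, adjusted p = 4.0e-15 and Drd4, the receptor of photoreceptors, at 4.36 ± 0.25, adjusted p = 3.9e-15. The plot of pineal pathway genes shows no overlap between the pools for the enzymes Gch1, Tph1, Aanat and Ddc.

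**Figure D4:**
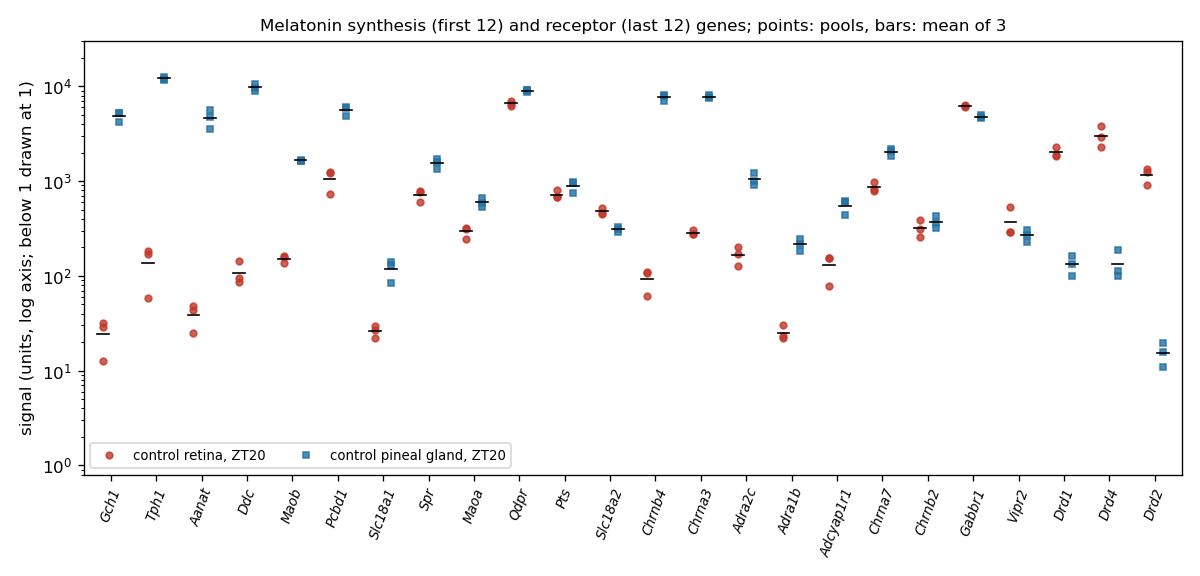
Signal (units, log axis) of each night pool for 12 melatonin synthesis and 12 receptor genes, control retina (circles) left of control pineal gland (squares), with bars at the mean of 3 pools. Gch1, Tph1, Aanat, Ddc, Chrnb4 and Chrna3 are high in the gland, and Drd1, Drd4 and Drd2 in the retina.

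The cyclic AMP cascade was divided among family members. Of 30 genes 9 were higher and 17 lower, with a median of -0.57. Adenylyl cyclases Adcy1 (3.28 ± 0.25, adjusted p = 2.2e-12) and Adcy8 (2.33 ± 0.21, adjusted p = 4.0e-11) were higher in the retina and Adcy7 (-2.02 ± 0.15, adjusted p = 2.1e-12) and Adcy2 (-1.66 ± 0.17, adjusted p = 1.2e-09) lower. The kinase regulatory subunit Prkar2b had 1602, 1578 and 2121 units in retina pools and 7789, 7899 and 8244 in pineal pools (-2.18 ± 0.11, adjusted p = 3.7e-16) and the catalytic subunit Prkaca was at -0.51 ± 0.10, adjusted p = 3.0e-05. Among phosphodiesterases Pde1b was at 2.46 ± 0.20, adjusted p = 1.2e-11 and Pde7b at -3.47 ± 0.24, adjusted p = 2.5e-13. Of 22 cyclic AMP-responsive and immediate-early genes 12 were lower and 4 higher. Cyclooxygenase Ptgs2 had 36.6, 30.8 and 49.1 units in retina pools and 844, 1223 and 959 in pineal pools (-4.22 ± 0.23, adjusted p = 1.0e-15), Fosl2 was at -2.75 ± 0.17, adjusted p = 1.3e-14 and Crem, whose inducible product represses Aanat, at -2.60 ± 0.17, adjusted p = 5.3e-14. Higher in the retina were the coactivator Ppargc1a (2.52 ± 0.20, adjusted p = 5.2e-12), Ier3 (2.34 ± 0.18, adjusted p = 1.7e-12) and Fos, with 2912, 2324 and 2816 units in retina pools and 672, 667 and 855 in pineal pools (1.86 ± 0.20, adjusted p = 1.9e-09).

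Endocrine secretory genes were divided, 13 of 30 higher and 14 lower. The granins Chga (-1.14 ± 0.16, adjusted p = 5.8e-07) and Chgb (-0.82 ± 0.08, adjusted p = 5.4e-10), the granule protein Ptprn (-2.02 ± 0.19, adjusted p = 1.5e-10), Rab27a (-2.36 ± 0.19, adjusted p = 7.2e-12) and its effector Sytl4 (-3.69 ± 0.28, adjusted p = 1.9e-12) were lower in the retina, with Dlk1 and Tac4. Higher were Cadps (4.24 ± 0.18, adjusted p = 1.2e-17), which primes dense-core vesicles, and the neuropeptides Tac1 and Npy (3.58 ± 0.27, adjusted p = 9.9e-13). The opioid precursor Penk had 1710, 219 and 317 units in retina pools and 983, 1346 and 1182 in pineal pools (-1.20 ± 0.45, adjusted p = 0.022), and -2.07, adjusted p = 6.4e-06 without retina pool 1.

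Genes of non-neural cells were mostly lower in the retina. Of 16 meningeal genes 15 were lower, all by at least 4-fold, with a median of -4.12. The collagens Col1a1, with 404, 342 and 542 units in retina pools and 6694, 7484 and 8071 in pineal pools (-4.08 ± 0.18, adjusted p = 1.5e-17), and Col1a2 (-5.68 ± 0.28, adjusted p = 1.3e-16), and the proteoglycans Lum (-6.11 ± 0.33, adjusted p = 7.4e-16) and Dcn (-5.97 ± 0.68, adjusted p = 8.7e-09) were among them. Of 15 choroid plexus genes 13 were lower and 1, the water channel Aqp1 (1.21 ± 0.18, adjusted p = 7.3e-07), higher, with a median of -2.69. Klotho, Kl, had 39.2, 39.7 and 59.3 units in retina pools and 3756, 4216 and 1906 in pineal pools (-5.67 ± 0.28, adjusted p = 1.3e-16), pineal pool 3 being lowest. The thyroid hormone carrier Ttr, which pigment epithelium also makes, had 10349, 9091 and 8271 units in retina pools and 14222, 13464 and 13262 in pineal pools (-0.57 ± 0.08, adjusted p = 3.5e-07).

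Of 21 vessel genes 16 were lower and 1 higher, with a median of -2.27, from von Willebrand factor Vwf (-4.75 ± 0.23, adjusted p = 1.4e-16) to the receptor Kdr (0.80 ± 0.16, adjusted p = 7.9e-05), which retinal neurons and glia also express. The blood-brain barrier genes Cldn5 (-0.21 ± 0.27, adjusted p = 0.51) and Slco1a4 (-0.11 ± 0.24, adjusted p = 0.7) did not pass, and the fenestral diaphragm gene Plvap had 319.7, 208 and 362 units in retina pools and 1257, 1503 and 1642 in pineal pools (-2.27 ± 0.24, adjusted p = 1.4e-09). Of 16 macrophage and microglia genes 15 were lower, with a median of -2.87. The perivascular macrophage receptors Mrc1, with 47.1, 9.5 and 39.8 units in retina pools and 2408, 2977 and 2537 in pineal pools (-5.88 ± 0.27, adjusted p = 4.8e-17), and Cd163 (-5.42 ± 0.28, adjusted p = 4.1e-16) stood farthest out, and the microglial receptor P2ry12, with 75.7, 78.3 and 98.5 units in retina pools and 108, 137 and 116 in pineal pools, did not pass (-0.45 ± 0.22, adjusted p = 0.077). Mast cell proteases were read in the gland and nearly at 0 in the retina, with Cpa3 at 0.8, 2.4 and 2.6 units in retina pools and 301, 563 and 394 in pineal pools (-4.56 ± 0.26, adjusted p = 2.3e-15). All 5 mast cell genes and all 3 red cell genes that were tested were lower, and 1 more of each list was on the array but too dim to be tested. At night a gene like Cpa3 was above the array median only in the gland. The direction of such genes was thus partly set by the choice of genes tested. The red cell marker Hba-a1, not tested, averaged 7.9 units in retina pools and 7.2 in pineal pools.

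Antigen presentation and interferon genes were also lower in the retina, 17 of 18, and 1 was higher, with a median of -2.11. The class II chain H2-Aa had 54.6, 14.4 and 28 units in retina pools and 3060, 4052 and 3260 in pineal pools (-6.24 ± 0.27, adjusted p = 9.6e-18), its chaperone Cd74 was at -5.73 ± 0.25, adjusted p = 1.8e-17, and the class I light chain B2m at -1.45 ± 0.12, adjusted p = 1.7e-11. The interferon regulator Irf7 was the opposite case, with 923, 531 and 769 units in retina pools and 144, 124 and 168 in pineal pools (2.21 ± 0.29, adjusted p = 1.0e-07). Its difference depended on the time. In limma's test of the night difference minus the day difference it changed by 1.70, adjusted p = 0.029. From ZT6 to ZT20 Irf7 rose by 2.20 in the retina and by 0.51 in the gland. Of 22 matrix genes 13 were lower and 3 higher. The vitreous and ciliary collagen Col9a1 was at 4.96 ± 0.34, adjusted p = 2.0e-13 and the neural proteoglycan Ncan at 3.14 ± 0.27, adjusted p = 2.3e-11, while Bgn was at -5.46 ± 0.32, adjusted p = 6.5e-15 and Col5a2 at -5.40 ± 0.29, adjusted p = 1.0e-15. The parts of meninges, choroid plexus and blood taken with the gland in these values were not tested.

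Genes of glucose supply and glycolysis were more often higher than lower in the retina, and those of respiration were lower or did not pass. Of 22 glycolysis and supply genes 12 were higher and 3 lower, with a median of 0.34. The lactate exporter Slc16a3 had 1634, 1266 and 2014 units in retina pools and 51.3, 68.2 and 48.7 in pineal pools (4.51 ± 0.23, adjusted p = 2.7e-16), the glucose transporter Slc2a3 3218, 3175 and 3787 units in retina pools and 166, 225 and 188 in pineal pools (4.03 ± 0.24, adjusted p = 6.0e-15), while Slc2a1 had 8646, 7426 and 7903 units in retina pools and 8840, 8406 and 8884 in pineal pools (-0.13 ± 0.07, adjusted p = 0.12). Aldoc was at 2.31 ± 0.15, adjusted p = 1.2e-13 and Aldoa at -0.02 ± 0.06, adjusted p = 0.78, Pfkp at 2.38 ± 0.16, adjusted p = 7.5e-14 and Pfkm at -0.34 ± 0.15, adjusted p = 0.054. Mitochondrial respiration gave 15 of 21 lower and 0 higher, with a median of -0.47, and 12 lower after median centring. Ribosomal proteins gave 7 of 9 lower, 0 higher, with a median of -0.29. After median centring 1 was lower and the median was -0.10, so most of these calls depended on the scaling of the arrays. Of 22 clock genes 10 were higher and 2 lower, with 0 at 4-fold. Nr1d1, a repressor of the clock loop, had 2350, 1884 and 2103 units in retina pools and 459, 831 and 529.8 in pineal pools (1.81 ± 0.21, adjusted p = 7.4e-09), Ciart was at 1.83 ± 0.21, adjusted p = 1.2e-08, Per2 at 0.02 ± 0.16, adjusted p = 0.91, and Npas2 at -0.76 ± 0.21, adjusted p = 0.0021.

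The last question was which of these differences depended on the time of day. At ZT6 8537 genes (66%) passed, and 7311 of the 8209 night calls (89.1%) passed there with the same sign. Of the 2107 passing genes with at least a 4-fold difference at night, 2098 passed by day with the same sign. The test of the night difference against the day difference called 139 genes (1.08%), 54 as more positive (0.418%) and 85 as more negative (0.657%) at night. In 130 of the 139 the change between times was larger in the gland than in the retina, with medians of the absolute change of 0.19 in the retina and 1.26 in the gland. All 85 negative ones were higher at night than by day in the gland. Of the 3 night pools of the gland, pool 2 lay nearest to the day pools in 115 of the 139 genes, pool 1 in 8 and pool 3 in 16. The count was 208 without that pool 2, 84 without pineal pool 1 and 77 without pineal pool 3 of ZT20. It was 288 after median centring and 553 after quantile normalisation.

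Aanat was at -6.40 at night and -3.18 by day, a change of -3.22 ± 0.34, adjusted p = 8.7e-07. Its retina pools read 44.1, 25.2 and 48.1 units at ZT20 and 56.6, 43.7 and 40.7 at ZT6, and its pineal pools 4715, 3549 and 5602 units at ZT20 and 387, 608 and 708 at ZT6. Gng4, a G protein gamma subunit, changed sign, with -0.78 at night and 3.62 by day (-4.40 ± 0.38, adjusted p = 3.4e-08). Its retina pools read 1444, 1055 and 1308 units at ZT20 and 1664, 1276 and 1301 at ZT6, and its pineal pools 2671, 1195 and 3219 units at ZT20 and 96.9, 103 and 98.6 at ZT6. The atypical cell cycle factor E2f8 read 4.6, 5.4 and 8.1 units at ZT20 and 10.2, 13.8 and 2.7 at ZT6 in the retina, and 1692, 803 and 1917 units at ZT20 and 70.4, 84.2 and 84 at ZT6 in the pineal gland (-4.02 ± 0.39, adjusted p = 2.2e-07). Other genes with opposite, passing signs were the carboxypeptidase Cpm (-1.35 at night, 2.19 by day), the vitamin C enzyme Gulo (-1.40 and 1.25) and the thyroid hormone deiodinase Dio2 (-1.06 and 1.39), which cyclic AMP induces. In all, 25 genes passed at both times with opposite signs, and 23 of them passed the test of the change. Piwil4, read by a probe set of type x and for that reason not plotted, changed by -2.97 ± 0.31, adjusted p = 4.6e-07.

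Dio2 is shown as a promoter with the full cyclic AMP response element, TGACGTCA, in capitals (RefSeq, GRCm38.p6, the same 300-base window), since it was higher by day in the retina and by night in the gland. Its retina pools read 882, 816 and 885 units at ZT20 and 1693, 1860 and 1994 at ZT6, and its pineal pools 1461, 1664 and 2436 units at ZT20 and 654, 771 and 665 at ZT6.
Dio2 chr12:90738989-90739288, minus strand: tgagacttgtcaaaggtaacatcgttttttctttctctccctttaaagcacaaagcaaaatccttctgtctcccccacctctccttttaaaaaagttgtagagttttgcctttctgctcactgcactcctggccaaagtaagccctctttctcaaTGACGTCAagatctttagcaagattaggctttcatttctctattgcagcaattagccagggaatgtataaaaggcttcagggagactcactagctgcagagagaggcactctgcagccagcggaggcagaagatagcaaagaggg
The palindrome begins 95 bases before the start. It was in 3 of 16 promoters of the cyclic AMP-responsive list (18.8%), in 5 of 64 (7.81%) of the genes with a more negative difference at night, in 3.5% of those of tested genes and in 2.03% of all promoters. Among genes with at least a 4-fold difference at night it was in 13 of 623 (2.09%) that were higher in the retina. Of those that were lower, 14 of 957 (1.46%) held it.

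Of the 54 genes whose night difference was more positive, 53 had less signal in the gland at night than by day. Sema5b, a guidance molecule, changed by 2.24 ± 0.53, adjusted p = 0.024 and the adhesion protein Cntn4 by 1.91 ± 0.31, adjusted p = 0.00052. Cntn4 read 3106, 2740 and 2870 units at ZT20 and 2621, 2196 and 2459 at ZT6 in the retina and 164, 255 and 155 units at ZT20 and 628, 552 and 681 at ZT6 in the gland. The opsin Opn1sw changed by 1.80 ± 0.38, adjusted p = 0.0098, with 4742, 4220 and 4347 units at ZT20 and 4002, 3299 and 3389 at ZT6 in the retina and 173, 665 and 242 units at ZT20 and 657, 913 and 1152 at ZT6 in the gland. Nrxn3, a presynaptic adhesion protein, was at 1.33 at night and -0.45 by day (1.78 ± 0.27, adjusted p = 0.00024). Among the clock genes Nr1d1 changed by 1.72 ± 0.29, adjusted p = 0.00092 and Cry1 by -1.45 ± 0.20, adjusted p = 6.7e-05. Per2, which did not pass at night, changed by -0.94, adjusted p = 0.029. The grid of pool values by time shows wider gaps between times in the gland than in the retina for most of these genes.

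**Figure D5:**
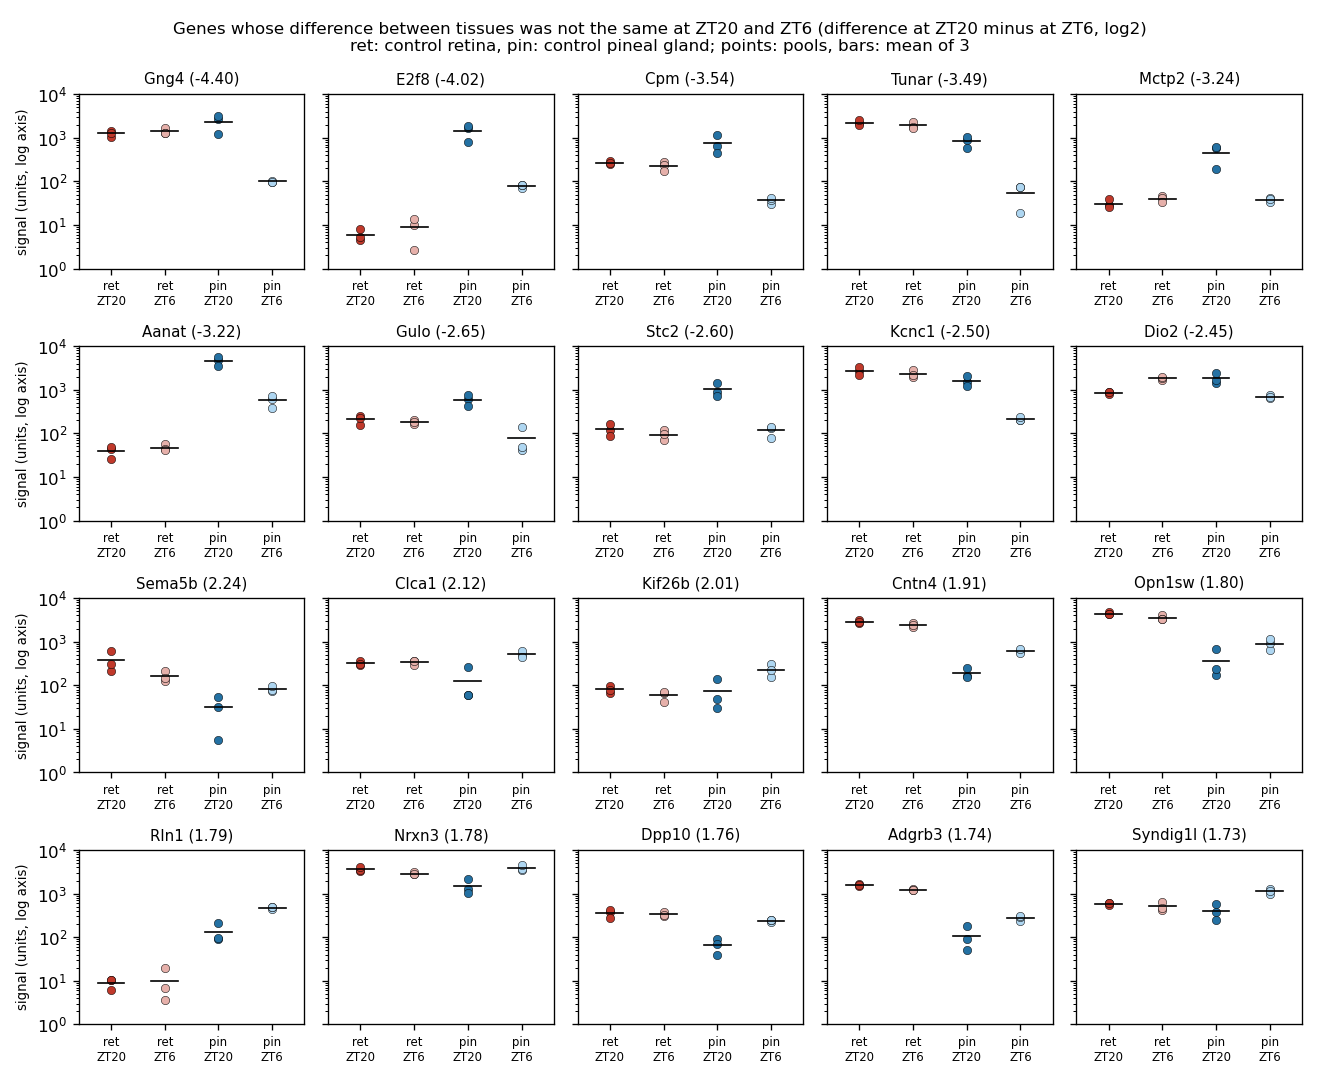
Signal (units, log axis) of the 3 pools of control retina at ZT20 and ZT6 and control pineal gland at ZT20 and ZT6 for the 10 genes with the most negative and the 10 with the most positive change of the tissue difference, leaving out predicted genes and probe sets of type x. The change is in brackets in each title. Bars are means of 3 pools. Gng4 and E2f8 lie at like heights at both times in the retina and higher at night than by day in the gland.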

How the data were processed

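RNA of pools of 6 retinas or pineal glands was measured on Affymetrix Mouse 430 2.0 arrays. The authors deposited linear signal intensities, 1 for each of 45101 probe sets and array. The submitters' processing notes name GCOS, without version or scaling. Isolation used an RNeasy Micro kit, and amplification NuGEN Ovation V2, per the labels' protocols. Arrays were not rescaled in the results reported, and the number of arrays limits the precision.

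Gene names came from the platform annotation, in which 34945 probe sets had 1 symbol, 932 several and 9160 none, and 64 controls were left out. Where a gene had several probe sets, the one brightest on average over 24 arrays was used. Of 498 genes with at least a 4-fold difference and other bright probe sets, 10 had one of opposite sign. Linear models of log2(signal + 16) were run in limma 3.58.1 under R 4.3.3 (lmFit, contrasts.fit, eBayes with a trend) over all 8 groups, with two-sided p-values adjusted by Benjamini-Hochberg over 12928 genes at 0.05. The pseudocount understates differences of dim genes. An exact permutation test of 3 pools against 3 cannot give a p under 0.1. The fit was tested on simulated data.

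The text names the 20 largest night differences each way whose pools did not overlap, the 10 largest changes between times each way, up to 5 passing members a direction and up to 3 bright other members of each list, and members of 16 gene families, leaving out clones, predicted genes, sex-linked markers and genes whose probe set ends in _x_at from the largest differences and changes. Members shown beyond these were chosen after their values were seen. The comparison, lists, families and tests were chosen with earlier results of these data known. Pool numbers are shared between groups, and deviations of same-numbered pools of the 2 tissues correlated at -0.129, -0.078 and -0.019. Such values cannot show whether same-numbered pools came from the same mice. The fit reported did not pair them.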

Additional observations from a re-analysis of the deposited data

Results flagged for a closer look

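For the 20 named genes with the largest changes the difference between control retina and control pineal gland was itself different at ZT20 and ZT6, by limma's test of the night difference minus the day difference with 3 pools per group. Toward a lower night difference these were Gng4 (-4.40 ± 0.38, adjusted p = 3.4e-08), E2f8 (-4.02 ± 0.39, adjusted p = 2.2e-07), Cpm (-3.54 ± 0.39, adjusted p = 1.5e-06), the long noncoding RNA Tunar (-3.49 ± 0.41, adjusted p = 4.6e-06), Mctp2 (-3.24 ± 0.57, adjusted p = 0.0016), Aanat (-3.22 ± 0.34, adjusted p = 8.7e-07), Gulo (-2.65 ± 0.41, adjusted p = 0.00032), stanniocalcin Stc2 (-2.60 ± 0.36, adjusted p = 9.0e-05), the potassium channel Kcnc1 (-2.50 ± 0.28, adjusted p = 1.6e-06) and Dio2 (-2.45 ± 0.38, adjusted p = 0.00034). Tunar read 2191, 2009 and 2516 units at ZT20 and 2361, 1796 and 1719 at ZT6 in the retina and 908, 578 and 1071 units at ZT20 and 18.6, 74.3 and 73 at ZT6 in the gland. A pair of other bright Kcnc1 probe sets gave the opposite sign at night, so its value holds for 1 probe set.

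Toward a higher night difference they were Sema5b (2.24 ± 0.53, adjusted p = 0.024), Clca1 (2.12 ± 0.45, adjusted p = 0.011), Kif26b (2.01 ± 0.43, adjusted p = 0.011), Cntn4 (1.91 ± 0.31, adjusted p = 0.00052), Opn1sw (1.80 ± 0.38, adjusted p = 0.0098), relaxin Rln1 (1.79 ± 0.38, adjusted p = 0.0098), Nrxn3 (1.78 ± 0.27, adjusted p = 0.00024), Dpp10 (1.76 ± 0.35, adjusted p = 0.0057), Adgrb3 (1.74 ± 0.32, adjusted p = 0.0024) and Syndig1l (1.73 ± 0.36, adjusted p = 0.0098). Rln1 read at most 19.3 units in the retina and 93.4, 212 and 98 units at ZT20 and 434, 496 and 501 at ZT6 in the gland. In Clca1, with 60.5, 259 and 59.8 units at ZT20 and 508, 607 and 442 at ZT6 in the gland, night pool 2 stood above the other night pools. The same was so in Kif26b, Rln1, Nrxn3, Adgrb3, Syndig1l, Opn1sw and Cntn4.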

How the results depend on the processing

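The count of genes that passed at night was 7369 to 9607 over 14 alternatives, but its split moved with the scaling of the arrays. Higher in the retina were 4333 genes after quantile normalisation and 4211 at a common trimmed mean, against 2684 as deposited, and a pseudocount of 64 left 833 genes at least 4-fold lower, against 1282. The change between times called 288 genes after median centring (126 positive, 162 negative), 553 after quantile normalisation (266 and 287) and 438 at a common trimmed mean (201 and 237). The cause was not tested. Leaving out 1 pool gave 7414 to 8071 night calls, 2339 to 2752 higher, 4662 to 5732 lower, 792 to 862 at least 4-fold higher and 1157 to 1372 lower, and for the change between times 77 to 208 calls, 20 to 98 positive and 48 to 110 negative.

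Of 7581 values of 380 named genes 7373 kept the call, and the sign too where the gene had passed. Of the rest 90 lost the call, 112 gained it and 6 reversed the sign of a gene that had passed. Sign changes of genes that had not passed were not counted as reversed. Reversed were Ckb (0.0151) and Otx2 (0.000919) at a common trimmed mean and, as means of all probe sets, Kcnc1 (-0.41), Kcnma1 (0.72), Mbp (-1.57) and Tpm3 (0.15). Of the 20 genes that changed between times, Clca1, Kif26b, Nrxn3, Rln1, Sema5b and Syndig1l lost the call in 18 of 479 values. With a replicate block for the pool number 8172 genes passed at night (2675 higher, 5497 lower) and 139 changed between times. Without the knockout arrays 8352 and 154 did. The signals of dim genes near background limit their folds.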

Other observations

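Myelin genes of the optic pathway and of nerve ran in both directions. Of 6 members tested 2 were higher in the retina and 4 lower. The cytoskeletal Ermn had 228, 248 and 235 units in retina pools and 18.3, 19.4 and 11.3 in pineal pools (2.98 ± 0.26, adjusted p = 5.1e-11) and Mbp, the myelin basic protein, 995, 868 and 1188 units in retina pools and 305, 305 and 185 in pineal pools (1.90 ± 0.22, adjusted p = 8.3e-09), though the mean of all Mbp probe sets reversed. The claudin Cldn11, which is also made by meningeal barrier cells, had 33.2, 23.6 and 23.4 units in retina pools and 3646, 3855 and 3379 in pineal pools (-6.42 ± 0.39, adjusted p = 1.3e-14), and the nerve myelin gene Pmp22 was at -1.26 ± 0.21, adjusted p = 5.3e-06. Of 8 housekeeping genes 2 were higher and 4 lower, with Actb at -0.23 ± 0.06, adjusted p = 0.0012 and, after median centring, -0.04, adjusted p = 0.72.

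The basement membrane genes Nid1, with 2400, 232 and 232 units in retina pools and 3628, 4606 and 3986 in pineal pools (-2.94 ± 0.76, adjusted p = 0.0013), and Col4a1, with 2687, 727 and 782 units in retina pools and 1554, 2383 and 1943 in pineal pools (-0.73 ± 0.34, adjusted p = 0.062), followed retina pool 1, which was also highest in lens and melanosome genes. Without that pool they stood at -4.04, adjusted p = 1.2e-05, and -1.34, adjusted p = 0.00019. The astrocytic connexin Gja1 had 4437, 1126 and 1524 units in retina pools and 8090, 8207 and 8408 in pineal pools (-2.05 ± 0.38, adjusted p = 2.5e-05), and -2.64, adjusted p = 8.4e-08 without that pool.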
